A study of Mus musculus with 6 samples.

Results

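Retinoid metabolism was examined through 9 genes in kidneys of mouse pups born to iron-deficient dams: the retinol-binding protein genes Rbp2 and Rbp4, the retinol receptor gene Stra6, the retinal dehydrogenase genes Aldh1a1, Aldh1a2 and Aldh1a3 with their relative Aldh1a7, the retinoic acid hydroxylase gene Cyp26b1 and the receptor gene Rarb. The 9 genes were chosen by symbol from 24422 genes with counts, as retinol-binding proteins, retinal dehydrogenases and retinoic acid response genes. Rbp2 was selected on its measured values, because it was almost absent from control kidneys, so its values are given as a description without a test. The other 8 genes were listed by role, with results of these data known. All 9 genes passed the filter on low counts, Rbp2 through its counts in FeD kidneys.

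The study asked how the developing kidney depends on its supply of iron. RNA-seq counts were compared between whole kidneys of 3 pups in each of 2 groups on postnatal day 15. All pups were wild type and of the C57BL/6 strain. Control pups had dams on an iron-sufficient diet with 220 ppm iron, and FeD pups had dams on a synthetic diet with about 2 to 6 ppm iron. By the sample records, the diets began in dams aged 8 weeks, a month ahead of mating, and lasted through pregnancy and nursing, while the paper's methods give 3 weeks ahead of mating; iron deficiency was thus not limited to the kidney. Neither the labels nor the methods give the number of litters, and differences between litters cannot be told apart from the diet. Polyadenylated RNA of the 6 kidneys was sequenced. The libraries held 18312543, 16189041 and 20374327 counts on genes in control kidneys 1, 2 and 3, and 17833878, 13732173 and 20853293 in FeD kidneys 1, 2 and 3. Values are given as counts per 1000000 counts of a library (CPM), scaled by the TMM method, and levels of different genes are compared as CPM per 1000 bases of exon (RPKM), except that the marker with the highest summed CPM of a list, which depends on its length too, is named as its leading gene. A floor of 3 counts, the smallest signal taken as detectable, stood at 0.144 to 0.218 CPM, and floors and counting intervals cover counting error only.

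Retinol (vitamin A alcohol) circulates bound to Rbp4, which travels in a complex with transthyretin (Ttr), and it enters cells through membrane receptors such as Stra6. Inside cells it is held by small binding proteins such as Rbp2, oxidized to retinal by retinol dehydrogenases and then to retinoic acid by the Aldh1a enzymes, while enzymes of the Cyp26 family degrade retinoic acid. Retinoic acid acts on genes through RAR and RXR receptors at paired DNA half-sites. In the kidney, proximal tubules recover filtered Rbp4 by megalin (Lrp2), and in the embryo retinoic acid made in the stroma maintains the growth receptor gene Ret in the ureteric bud.

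Promoter sequences were taken from RefSeq (GRCm38.p6) for 8 of the 9 genes, as 13 windows of 300 bases that run from 250 bases before to 50 bases after a transcription start; Aldh1a3 had no entry. Each window was found once by exact match on its chromosome of the mm9 genome, the build of the counts, and the positions given are those of mm9. Windows were searched on both strands for a direct repeat of half-sites, each AGGTCA or GGGTCA or AGTTCA or GGTTCA, with 5 bases between them (DR5). A DR5 was found in 1 of the 13 windows, that of Rarb, where it spans bases -53 to -37 from the start. Among all 32851 RefSeq promoter windows of this length, 32 held a DR5 (0.0974%). Repeats with 2 bases or 1 base between the half-sites were found in none of the 13 windows and in 0.268% and 0.222% of all windows. The Rarb window lies inside the annotated gene (chr14:17263356-17651381, minus strand), at chr14:17407941-17408240, and is shown because Rarb is both a receptor and a known target of retinoic acid; capitals mark the DR5.
Rarb promoter: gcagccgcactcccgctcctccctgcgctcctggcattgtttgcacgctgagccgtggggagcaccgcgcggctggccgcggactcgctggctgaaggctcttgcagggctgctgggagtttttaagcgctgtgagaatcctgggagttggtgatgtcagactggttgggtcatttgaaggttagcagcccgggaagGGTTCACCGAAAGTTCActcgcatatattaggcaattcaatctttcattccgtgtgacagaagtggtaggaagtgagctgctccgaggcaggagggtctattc

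The window of Rbp2 is shown because this gene was almost silent in one diet group and measurable in the other. It lies on the plus strand at chr9:98390706-98391005, at the annotated start of the gene (chr9:98390956-98410190). Capitals mark its single half-sites, which number 2 and read in the opposite direction; 13.1% of all promoter windows held at least 2 half-sites, overlapping ones included.
Rbp2 promoter: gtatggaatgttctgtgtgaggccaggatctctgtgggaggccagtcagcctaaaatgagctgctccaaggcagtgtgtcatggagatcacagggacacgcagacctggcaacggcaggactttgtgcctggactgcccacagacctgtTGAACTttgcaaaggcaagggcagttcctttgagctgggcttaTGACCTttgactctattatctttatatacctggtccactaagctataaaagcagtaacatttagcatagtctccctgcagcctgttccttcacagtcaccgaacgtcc

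Aldh1a1 and Aldh1a7 are neighbours on chromosome 19, and their windows are shown because they share much of their sequence. The gene bodies lie 49490 bases apart on opposite strands, Aldh1a1 at chr19:20676451-20717952 on the plus strand and Aldh1a7 at chr19:20767443-20802052 on the minus strand. The window at the annotated start of Aldh1a1 (chr19:20676208-20676507) and the window of Aldh1a7 (chr19:20801997-20802296) aligned over 282 bases, of which 216 were identical (76.6%), with a shared run of 65 bases. Capitals mark the single half-site of each window, which starts at base -49 in both. Holding at least 1 half-site is common, and was seen in 43.7% of all windows.
Aldh1a1 promoter: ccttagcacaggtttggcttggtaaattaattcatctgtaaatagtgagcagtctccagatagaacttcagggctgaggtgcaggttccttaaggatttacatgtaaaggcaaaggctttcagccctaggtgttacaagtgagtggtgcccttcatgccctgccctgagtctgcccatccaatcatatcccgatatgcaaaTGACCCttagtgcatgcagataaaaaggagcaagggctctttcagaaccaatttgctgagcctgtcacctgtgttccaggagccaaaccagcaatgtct
Aldh1a7 promoter: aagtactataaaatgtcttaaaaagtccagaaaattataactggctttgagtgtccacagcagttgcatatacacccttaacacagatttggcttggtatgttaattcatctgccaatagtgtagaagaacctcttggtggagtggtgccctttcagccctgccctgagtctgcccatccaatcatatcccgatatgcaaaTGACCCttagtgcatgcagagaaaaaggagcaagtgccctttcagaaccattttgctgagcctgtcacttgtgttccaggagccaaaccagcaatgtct

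The labelled tissue was checked against marker genes. Markers of proximal tubule, thick ascending limb, distal convoluted tubule and collecting duct were present in all 6 libraries; the proximal phosphate transporter gene Slc34a1 had a mean of 4020 CPM in control kidneys. Libraries of 2 kidneys also held markers of other organs. In control kidney 1, 8 ovary genes, listed after their values were seen, summed to 148 CPM, against 0.580 to 1.18 CPM in the other 5 kidneys. The leading gene was Padi6, an oocyte gene, with 786 counts in control kidney 1 and at most 3 in each other kidney. In FeD kidney 2, the 7 adrenal cortex markers summed to 620 CPM, against 7.92 to 23.7 CPM elsewhere, and the 4 adrenal medulla markers to 301 CPM, against 0.619 to 1.18 CPM. The leading genes were Star for the cortex and Chga for the medulla, with 2817 and 1715 counts in FeD kidney 2; Star had 140 to 219 counts in the other kidneys, and Chga at most 14. For the genes chosen and the pathway genes changed at least 2-fold, values without control kidney 1 and FeD kidney 2 are given below where a call changed, and for Rbp2 and Ret.

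The sex of the pups is not in the labels, but the libraries differed in Xist, the RNA of the inactive X chromosome, and in Y-linked genes. Xist had 16076 and 12870 counts in control kidneys 1 and 2 and 18627 in FeD kidney 3, with 47, 28 and 37 counts in control kidney 3 and FeD kidneys 1 and 2. The Y-linked gene Ddx3y ran the other way, with 1537 to 1864 counts in those last 3 kidneys and at most 11 in the Xist-high kidneys. The control group thus held 2 Xist-high kidneys and the FeD group 1, and a fit with this difference as a term was added after seeing the data.

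**Figure D1:**
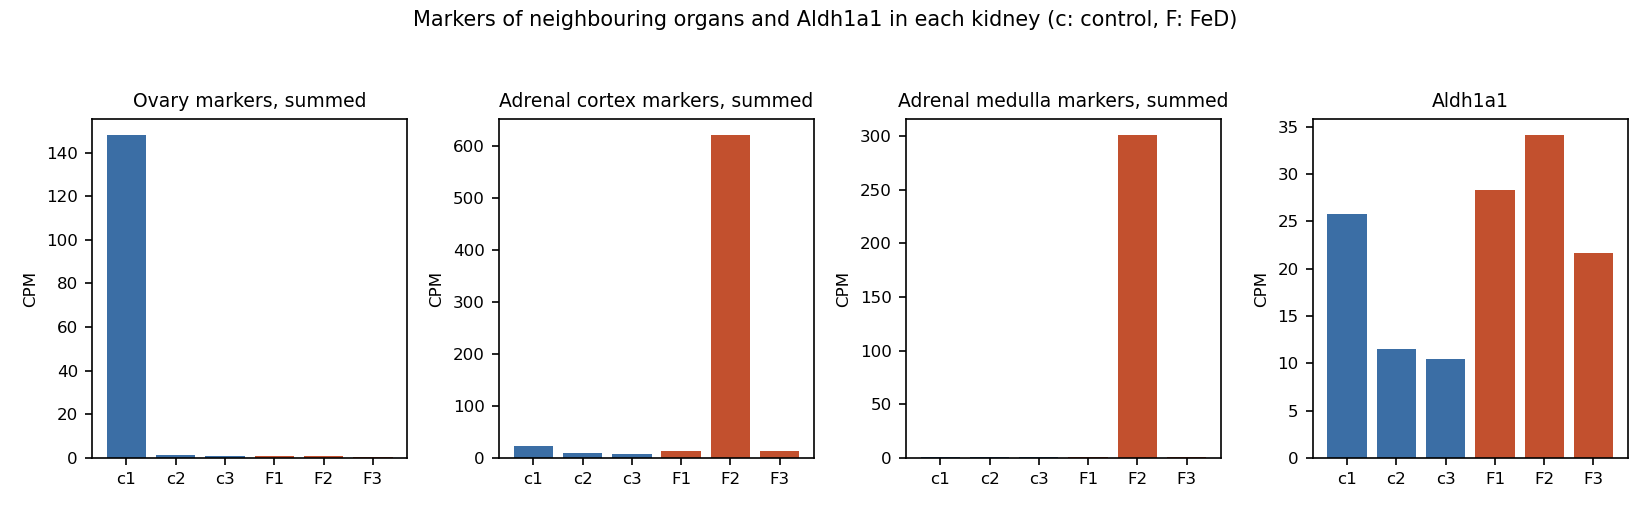
Bars show the CPM of each kidney (c1 to c3 control, F1 to F3 FeD) for the summed ovary, adrenal cortex and adrenal medulla markers and for Aldh1a1, each on its own linear axis from 0. The ovary sum stands out in control kidney 1 (148 CPM) and the adrenal sums in FeD kidney 2 (620 and 301 CPM), while Aldh1a1 was higher in control kidney 1 (25.8 CPM) than in the other control kidneys.

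FeD and control kidneys were set against each other with edgeR (quasi-likelihood test), and P was adjusted over all tested genes by Benjamini and Hochberg's method. Of the 8 genes with a test, 3 rose at least 2-fold in FeD kidneys, namely Rbp4, Aldh1a2 and Aldh1a7, and 1 fell at least 2-fold, Stra6. By the same rule, an adjusted P under 0.05 and at least a 2-fold change, 4.34% of the 15145 tested genes were higher and 5.69% were lower. Smaller falls passed the adjusted P alone for 2 genes, Cyp26b1 and Rarb. By the adjusted P alone, 23.3% of all tested genes fell and 22.4% rose, shares that include changes of at least 2-fold. Counted in the same way, Stra6 joins the falls, and Rbp4, Aldh1a2 and Aldh1a7 are the rises. Aldh1a1 and Aldh1a3 did not pass. FeD and control kidneys did not overlap in 7 of the 9 genes, against 58.1% of tested genes. Rbp2, which was picked for its low control counts, is among the 7. Since the genes were chosen with results of this comparison known, nothing is read from these counts. Whole kidneys were sequenced, so fewer cells of a type and less RNA per cell cannot be told apart.

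**Figure D2:**
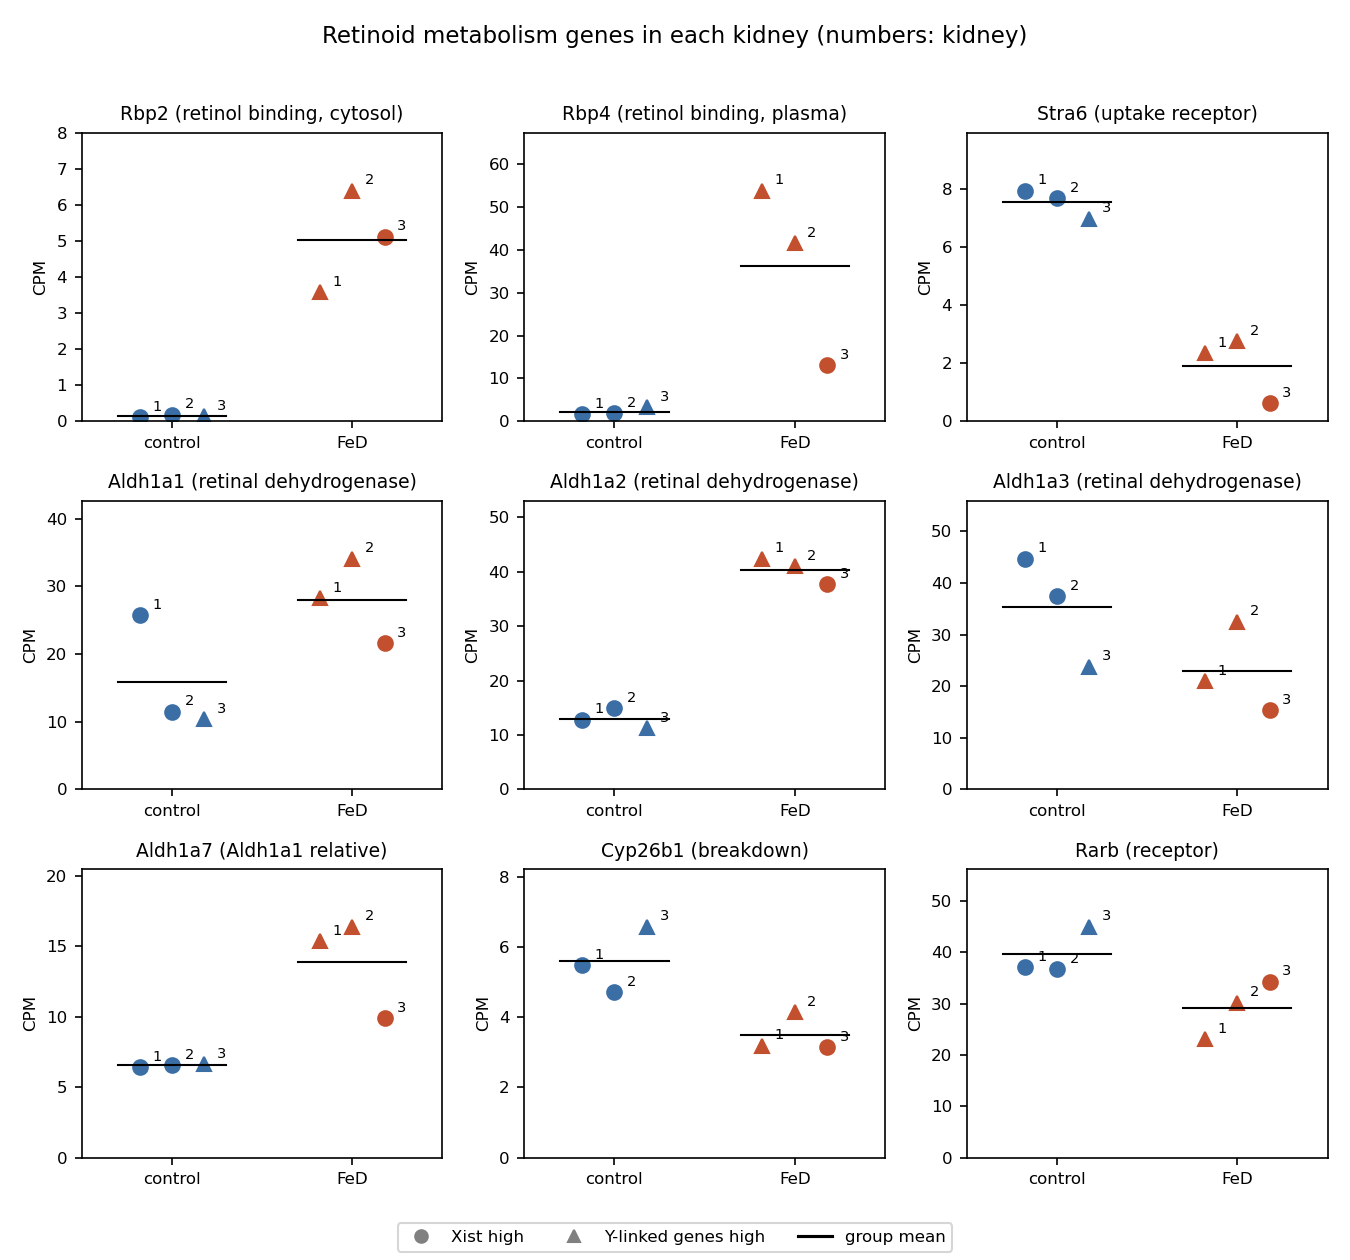
Each panel plots the CPM of 1 gene in the 3 control and 3 FeD kidneys on a linear axis from 0, with kidney numbers, the group mean as a line, circles for Xist-high kidneys and triangles for kidneys with high Y-linked genes. The groups overlap for Aldh1a1 and Aldh1a3 and are apart for the other 7 genes.

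Rbp2 encodes the cellular retinol-binding protein of the small intestine, where it holds retinol newly absorbed from the diet. It had 2, 3 and 3 raw counts in control kidneys 1, 2 and 3, at or under the floor of 3 counts, and 64, 88 and 106 raw counts in FeD kidneys 1, 2 and 3. Scaled to library size, the control kidneys stood at 0.107, 0.186 and 0.149 CPM and the FeD kidneys at 3.58, 6.40 and 5.12 CPM. Every FeD kidney was thus far above every control kidney. The ratio of the summed counts, 258 in FeD against 8 in control kidneys and corrected for library size, was 33.8, with a 95% counting interval (exact binomial) of 16.9 to 79.2, which describes counting error only and is no test, as the gene was picked for its low control counts. Without control kidney 1 and FeD kidney 2, the log2 ratio of the mean CPM was 4.70, against 5.09 with all 6 kidneys.

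Markers of the enterocyte, the cell type best known for Rbp2, were nearly absent. Of 7 enterocyte markers, Fabp2, Sis and Cdx2 had 0 counts in every kidney, and the list summed to 0.805 to 2.85 CPM in control and 0.338 to 0.727 CPM in FeD kidneys. Its leading gene was Apoa4, with 49, 12 and 11 counts in control and 1, 5 and 5 in FeD kidneys, and Lct had 4, 1 and 10 counts in control and 8, 5 and 2 in FeD kidneys. No other gene of the list had over 1 count in any kidney. Rbp2 also shared none of its 573 transcript windows of 100 bases with another protein-coding gene, and no annotated exon overlaps its exons.

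Beside Rbp2 on chromosome 9, 53188 bases away, lies 4930579K19Rik, which had means of 1.64 CPM in control and 1.60 CPM in FeD kidneys and thus did not follow Rbp2. The 5 tested genes whose 6 log2 CPM values lay nearest to those of Rbp2, by Euclidean distance, were Gm5662 (1.54), Gm6614 (1.62), Epo (1.88), Ugt2b37 (1.93) and Nlrp10 (2.15). Of these, the erythropoietin gene Epo had 4, 4 and 5 raw counts in control kidneys and 71, 35 and 65 in FeD kidneys.

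Rbp4 encodes the plasma carrier of retinol, made mainly by the liver and also by fat. It had 1.72, 1.92 and 3.24 CPM in control kidneys 1, 2 and 3 and 53.9, 41.6 and 13.2 CPM in FeD kidneys 1, 2 and 3. All FeD kidneys lay above all control kidneys, but FeD kidney 3, the Xist-high one, was well below the other FeD kidneys. The rise was a log2 fold change of 3.96 (standard error, SE, 0.53, adjusted P = 0.00073, edgeR). Within the Xist-high kidneys, Rbp4 stood at 13.2 CPM in FeD against 1.72 and 1.92 CPM in control, and within the others at 53.9 and 41.6 CPM in FeD against 3.24 CPM. With Xist as a term, the log2 fold change was 3.41 (SE 0.24).

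Cells known for Rbp4 were followed through their markers. The 7 hepatocyte markers summed to 23.2, 19.9 and 20.6 CPM in control kidneys and 44.6, 68.7 and 23.5 CPM in FeD kidneys 1, 2 and 3; the leading gene was the fibrinogen gene Fga, which rose (log2 fold change 1.35, adjusted P = 0.014, edgeR) and made up most of the sum. Serpinc1 fell by 0.95 on the log2 scale (adjusted P = 0.044, edgeR), Alb, Fgb and Fgg did not pass, and Apoh and Ahsg had too few counts for the filter. Albumin (Alb), the defining hepatocyte gene, had at most 25 counts in each kidney. None of the 7 was at 0 in all kidneys. The 6 adipocyte markers were lower in FeD kidneys, with sums of 105 to 122 CPM in control and 29.2 to 37.1 CPM in FeD, and 3 of them (Plin1, Retn and Ucp1) fell at least 2-fold, Adipoq and Cidec fell by less and Lep did not pass. Ucp1 was the leading gene and none was at 0 throughout. Whether these markers have a part in the Rbp4 values was not tested.

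Ttr, which encodes the partner of Rbp4 in plasma, rose as well. It had 44.6 CPM on average in control and 160 CPM in FeD kidneys (log2 fold change 1.85, SE 0.14, adjusted P = 6.1e-05, edgeR), and over all 6 kidneys it had the highest mean RPKM of the uptake and transport genes, though in control kidneys Lrp2 was above it (77.3 against 36.6 RPKM). Beside Rbp4 on chromosome 19, 7459 bases from its start and on the opposite strand, lies Pde6c, a gene of cone photoreceptors named here after its values were seen. Pde6c had 1 raw count in each control kidney and 46, 26 and 3 in FeD kidneys 1, 2 and 3, too few for the filter, in the same order of FeD kidneys as the 962, 572 and 274 raw counts of Rbp4. On the other side and nearer, 2356 bases away, lies the fatty acid receptor gene Ffar4, with 7, 6 and 7 raw counts in control kidneys and 52, 25 and 46 in FeD kidneys 1, 2 and 3; it too was named after its values were seen, so no test is given. Of 6 visual cycle markers of the eye, Rbp3 was at 0 in every kidney, Rpe65, Rgr and Rlbp1 had at most 2 counts, and the sum, nearly all Abca4 (which fell by less than 2-fold), was 30.7 to 33.7 CPM in control and 24.9 to 27.4 CPM in FeD kidneys.

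Stra6 encodes the membrane receptor that takes up retinol from Rbp4. It had 7.94, 7.68 and 6.97 CPM in control kidneys and 2.35, 2.76 and 0.628 CPM in FeD kidneys 1, 2 and 3. Control kidneys were close together and FeD kidneys were all lower, FeD kidney 3 with 13 raw counts the lowest. Stra6 fell by 2.01 on the log2 scale (SE 0.41, adjusted P = 0.0051, edgeR), and its log2 fold change was -2.33 with Xist as a term. The annotated gene (chr9:57911595-58001803) overlaps Ccdc33 on the opposite strand, but their exons do not overlap, and Ccdc33 had 17 counts in control kidney 1 and 0 in the other kidneys.

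The related receptor gene Stra6l (Rbpr2), which encodes a second Rbp4 receptor described in liver and intestine, went the other way. It had 15, 12 and 16 raw counts in control kidneys and 160, 125 and 45 in FeD kidneys 1, 2 and 3, a log2 fold change of 3.08 (SE 0.54, adjusted P = 0.0025, edgeR). Rbp7, a cellular retinol-binding protein of fat and blood vessel cells, rose by a log2 fold change of 2.67 (SE 0.39, adjusted P = 0.0011, edgeR), from 27, 20 and 50 raw counts to 244, 195 and 122. In both genes, as in Rbp4 and Stra6, FeD kidney 3 had the lowest value of the FeD kidneys. With Xist as a term both log2 fold changes were smaller, 2.50 for Stra6l and 2.31 for Rbp7, and both genes still passed.

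Aldh1a1 encodes a cytosolic retinal dehydrogenase. It had 25.8, 11.5 and 10.4 CPM in control kidneys 1, 2 and 3 and 28.3, 34.1 and 21.6 CPM in FeD kidneys 1, 2 and 3. The groups overlapped through control kidney 1 alone, the kidney with ovary markers, and the highest FeD value was that of FeD kidney 2, with adrenal markers. The log2 fold change with all kidneys was 0.81 (SE 0.33), which did not pass (adjusted P = 0.079, edgeR). Without control kidney 1 it was 1.35 (SE 0.20, adjusted P = 0.0033, edgeR), and without both of these kidneys 1.20 (SE 0.17, adjusted P = 0.0046, edgeR), and DESeq2 on all kidneys gave 0.82 with an adjusted P of 0.024, while the adjusted P over all 14 alternatives ran from 0.0033 to 0.23. The part of ovary or adrenal RNA in the Aldh1a1 values was not tested.

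Aldh1a7 encodes a close relative of Aldh1a1. In control kidneys its levels were nearly equal, at 6.44, 6.57 and 6.63 CPM, and in FeD kidneys 1, 2 and 3 they were 15.4, 16.4 and 9.91 CPM. All FeD kidneys were higher, by a log2 fold change of 1.08 (SE 0.19, adjusted P = 0.0026, edgeR). That is just past the 2-fold threshold, and it fell to 0.94 without the kidneys with ovary or adrenal markers, to 0.97 without FeD kidney 2 alone and to 0.93 with Xist as a term, with an adjusted P of 0.027 at most over all 14 alternatives (edgeR or DESeq2). Unlike Aldh1a1, control kidney 1 did not stand apart in Aldh1a7. The neighbours share little transcript sequence at read length: 1 of 1967 windows of 100 bases in Aldh1a7 recurs in Aldh1a1.

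Aldh1a2 encodes the main retinal dehydrogenase of the embryo. It had 12.8, 14.9 and 11.3 CPM in control kidneys 1, 2 and 3 and 42.4, 41.0 and 37.7 CPM in FeD kidneys 1, 2 and 3. Kidneys of a group were close to each other, and the groups were far apart. Of the 8 genes it had the smallest adjusted P, with a log2 fold change of 1.64 (SE 0.11, adjusted P = 4.2e-05, edgeR), which lay between 1.54 and 1.74 over all 14 alternatives. Aldh1a2 lies on the plus strand at chr9:71063596-71144050, and its nearest neighbour Aqp9, named after its values were seen, had at most 4 counts in each kidney.

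Aldh1a3, the dehydrogenase of the ureteric bud in the embryonic kidney, had 44.7, 37.5 and 23.8 CPM in control kidneys and 20.9, 32.5 and 15.4 CPM in FeD kidneys. The groups overlapped, and the log2 fold change of -0.63 (SE 0.30) did not pass (adjusted P = 0.11, edgeR). Without FeD kidney 2, the one with adrenal markers, it was -0.94 (adjusted P = 0.024, edgeR), within a range of 0.017 to 0.32 over all 14 alternatives. Taken per length, the 4 Aldh1a genes summed to 31.0, 23.5 and 18.4 RPKM in control kidneys 1, 2 and 3 and to 44.5, 49.7 and 35.3 RPKM in FeD kidneys 1, 2 and 3. Aldh1a2 made up 18.3% to 28.0% of that sum in control and 36.5% to 47.2% in FeD kidneys, and Aldh1a3 made up 28.0% to 34.7% and 9.45% to 14.2%. Aldh1a1 made up 40.5% of the sum in control kidney 1 and 23.8% to 33.4% in the other 5 kidneys.

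Markers of cells in which these enzymes are known were counted beside them. Among 6 interstitium markers, Col3a1 and Lum fell at least 2-fold, Col1a1 fell by less, and Pdgfra, Pdgfrb and Dcn rose by less than 2-fold; the list summed to 1790 to 1890 CPM in control and 1180 to 1610 CPM in FeD kidneys, led by Col3a1. Of 6 collecting duct markers, Aqp2 and Aqp3 rose at least 2-fold, Scnn1g rose by less, Avpr2 and Hsd11b2 fell by less and Fxyd4 did not pass; the sum was 1290 to 1790 CPM in control and 1890 to 3050 CPM in FeD kidneys, led by Aqp2. Of 5 urothelium markers, Upk2 and Krt5 fell at least 2-fold, Upk3a fell by less, and Upk1a and Upk1b did not pass, with sums of 55.9 to 76.9 CPM in control and 39.8 to 53.4 CPM in FeD kidneys, led by Upk1b. None of these markers was at 0 throughout, and their part in the retinoid genes was not tested.

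Cyp26b1 encodes an enzyme that clears retinoic acid. It had 5.48, 4.71 and 6.58 CPM in control kidneys and 3.19, 4.14 and 3.14 CPM in FeD kidneys, so that the lowest control kidney was close above the highest FeD kidney. It fell by 0.69 on the log2 scale (SE 0.20, adjusted P = 0.024, edgeR), less than 2-fold. The adjusted P was above 0.05 when control kidney 1 (0.063), control kidney 3 (0.10) or FeD kidney 1 (0.071) was left out, within a range of 0.016 to 0.10 over all 14 alternatives. Its relative Cyp26a1, the most retinoic acid-responsive enzyme of the family, had 16, 16 and 10 raw counts in control and 4, 1 and 6 in FeD kidneys and did not pass the filter on low counts.

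Rarb encodes a retinoic acid receptor, and its own gene is a textbook target of retinoic acid. It had 37.1, 36.7 and 45.0 CPM in control kidneys and 23.1, 30.2 and 34.3 CPM in FeD kidneys 1, 2 and 3. The groups did not overlap, but FeD kidney 3 came close to the control kidneys. Rarb fell by 0.44 on the log2 scale (SE 0.15, adjusted P = 0.043, edgeR), less than 2-fold. That call was lost under 7 of 14 alternatives, among them leaving out any control kidney (adjusted P of 0.070, 0.070 and 0.15, edgeR), FeD kidney 1 (0.11), FeD kidney 2 (0.077) or both kidneys with markers of other organs (0.11), within a range of 0.0096 to 0.15.

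Levels of the 9 genes were ordered by mean RPKM. In control kidneys, Rarb (12.0 ± 1.41 RPKM, SD, n = 3) came first, within the wide spread of Aldh1a1 (7.74 ± 4.20 RPKM), which did not differ beyond its spread from Aldh1a3 (7.65 ± 2.30 RPKM) or Aldh1a2 (5.74 ± 0.789 RPKM). Aldh1a7 (3.17 ± 0.0456 RPKM) stood apart below them. Rbp4 (1.77 ± 0.637 RPKM), Stra6 (1.29 ± 0.0860 RPKM) and Cyp26b1 (1.21 ± 0.204 RPKM) lay within their spread of each other, and Rbp2 (0.220 ± 0.0585 RPKM) was lowest. In FeD kidneys the carrier gene Rbp4 had the highest mean (27.9 ± 16.1 RPKM), with a spread that reached Aldh1a2 (17.8 ± 1.07 RPKM) and Aldh1a1 (13.6 ± 3.06 RPKM). Rarb (8.88 ± 1.72 RPKM), Rbp2 (7.49 ± 2.10 RPKM) and Aldh1a7 (6.72 ± 1.68 RPKM) lay within their spread of each other, and Aldh1a3 (4.97 ± 1.89 RPKM) within that of Aldh1a7. Cyp26b1 (0.759 ± 0.123 RPKM) and Stra6 (0.328 ± 0.194 RPKM) came last. With the longest transcript as length, the control means were 2.45 RPKM for Stra6, 1.84 for Rbp4 and 1.24 for Cyp26b1, and 10.3 for Aldh1a3 against 7.74 for Aldh1a1, so these places depend on the length used. With either length, the intestinal binding protein gene Rbp2 had the lowest mean in control kidneys, and the receptor gene Stra6 in FeD kidneys. With the longest transcript, the FeD means were 0.622 RPKM for Stra6 and 0.777 for Cyp26b1. No spread was taken for that length, so this last place is by mean alone.

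**Figure D3:**
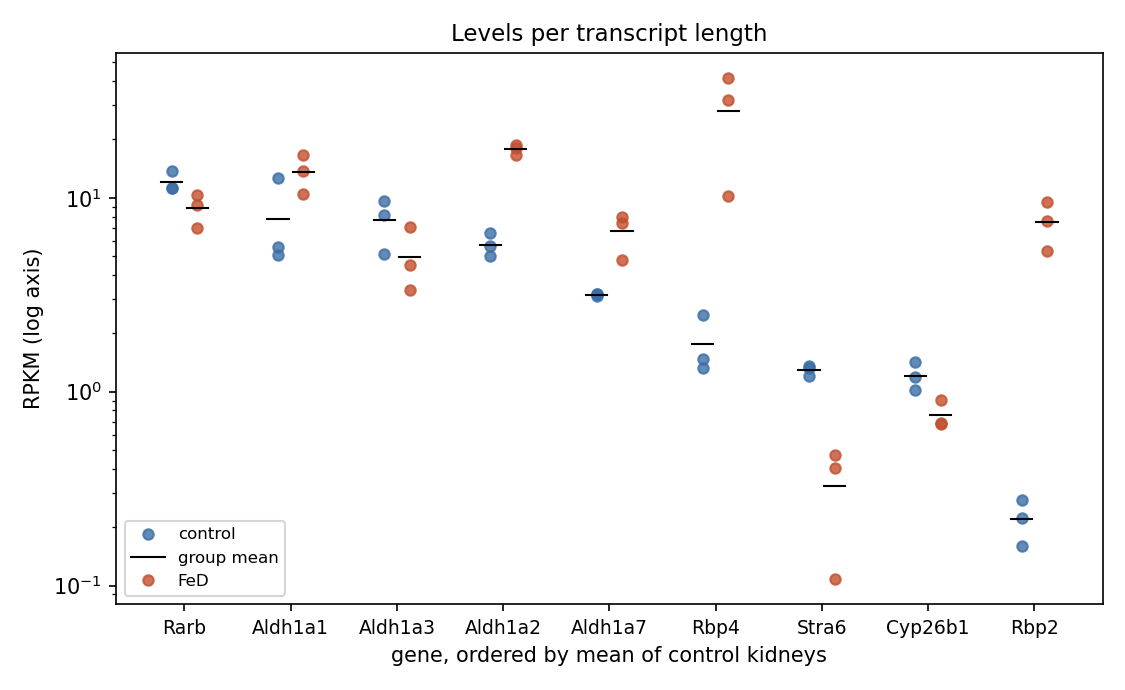
Points show the RPKM of each kidney on a log axis for the 9 genes, blue for control and orange for FeD kidneys, with group means as lines, in the order of the control means. Rbp2 and Rbp4 move furthest up and Stra6 furthest down between the groups.

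The wider pathway was described through 84 genes listed by role, of which 71 passed the filter on low counts. Apart from the 9 genes above, 62 of 75 passed it, and 5 of these rose and 3 fell at least 2-fold, beside the 4.34% and 5.69% of all tested genes given above. By the adjusted P alone, 15 rose, 18 fell and 29 did not pass, where 22.4% of all tested genes rose and 23.3% fell. Their median log2 fold change was -0.01, against 0 for all tested genes. The list was compiled with results of these data known, and no test of it was made.

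Among the 13 tested uptake and transport genes other than Rbp2, 5 rose and 3 fell by the adjusted P alone. The endocytic receptor genes Lrp2 (megalin) and Cubn (cubilin), which recover filtered Rbp4, fell by 0.48 and 0.45 on the log2 scale (adjusted P = 0.0019 and 0.0022, edgeR). These 2 are among the 10 proximal tubule markers, of which 7 fell at least 2-fold and 3 by less; the list summed to 9560 to 10200 CPM in control and 3250 to 3520 CPM in FeD kidneys, led by Slc34a1, with none at 0. Of 8 tested genes of carotene cleavage, storage and ester hydrolysis, 1 rose and 4 fell by the adjusted P alone, and the retinyl ester hydrolase gene Ces1d fell at least 2-fold (log2 fold change -1.09, adjusted P = 0.00012, edgeR). The lipoprotein lipase gene Lpl had the highest mean RPKM of that group over all 6 kidneys, below Ces1d in control kidneys (51.5 against 57.4 RPKM), and rose by 0.30 on the log2 scale (adjusted P = 0.011, edgeR). Lrat, the enzyme that stores retinol as ester, had 26, 7 and 15 raw counts in control and 5, 7 and 6 in FeD kidneys and did not pass the filter.

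Of 20 retinol dehydrogenase and retinal reductase genes, 15 were tested; by the adjusted P alone 5 rose and 3 fell, and Rdh7, which passed the filter through its FeD counts, rose at least 2-fold. It had 6, 3 and 9 raw counts in control kidneys and 66, 18 and 72 in FeD kidneys 1, 2 and 3 (log2 fold change 3.11, SE 0.49, adjusted P = 0.0015, edgeR); 2.02% of its transcript windows recur in related genes, so a small part of its reads may have been lost or misplaced. Adh1, an alcohol dehydrogenase that oxidizes retinol, had the highest mean RPKM of the whole list over all 6 kidneys, though in neither group alone (67.4 in control and 122 in FeD kidneys), and rose by 0.85 on the log2 scale (adjusted P = 0.00083, edgeR). Rdh10, the retinol dehydrogenase needed in the embryo, fell by 0.59 on the log2 scale (adjusted P = 0.0062, edgeR). Among the 7 retinal dehydrogenase and oxidase genes, Aldh8a1 fell furthest, from 27.8 to 4.62 RPKM on average (log2 fold change -2.59, SE 0.10, adjusted P = 4.7e-06, edgeR). Aldh8a1 was first described as a dehydrogenase of 9-cis-retinal and also acts in tryptophan breakdown, and in control kidneys its mean per-length level was above that of each of the 4 Aldh1a genes.

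Of the 5 breakdown genes only Cyp26b1 and Cyp2s1 were tested, and Cyp2s1, the more abundant of them per length, had a log2 fold change of 0.28 that missed the threshold (adjusted P = 0.18, edgeR). Among the 16 receptors and cofactors, 3 rose and 5 fell by the adjusted P alone. Rarg fell by 0.45 on the log2 scale (adjusted P = 0.0021, edgeR), Rara, Rxra and Rxrb did not pass, and Nr2f2, the most abundant per length, rose by 0.47 (adjusted P = 0.0066, edgeR). Rxrg, which passed the filter through its control counts, fell at least 2-fold (log2 fold change -1.51, SE 0.50, adjusted P = 0.037, edgeR), from 16, 19 and 29 to 2, 8 and 11 raw counts, but this call was lost under 7 of 13 alternatives, no filter (adjusted P = 0.066, edgeR) and leaving out control kidney 1, 2 or 3 or FeD kidney 1 among them, with an adjusted P of up to 0.13. Of 11 other response genes, Ret rose from 24, 22 and 35 to 65, 98 and 87 raw counts (log2 fold change 1.75, SE 0.31, adjusted P = 0.0024, edgeR); FeD kidney 2 was the highest, and without control kidney 1 and FeD kidney 2 the log2 fold change was 1.34 (adjusted P = 0.014, edgeR). Tgm2, which had the highest mean RPKM of them over all 6 kidneys but not in FeD kidneys alone, fell by 0.56 on the log2 scale (adjusted P = 0.0019, edgeR), with 13.7% and 8.03% of its exon bases overlapped by 2 genes on the opposite strand. By the adjusted P alone, 1 gene of that group rose, 4 fell and 4 of the 9 tested did not pass.

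**Figure D4:**
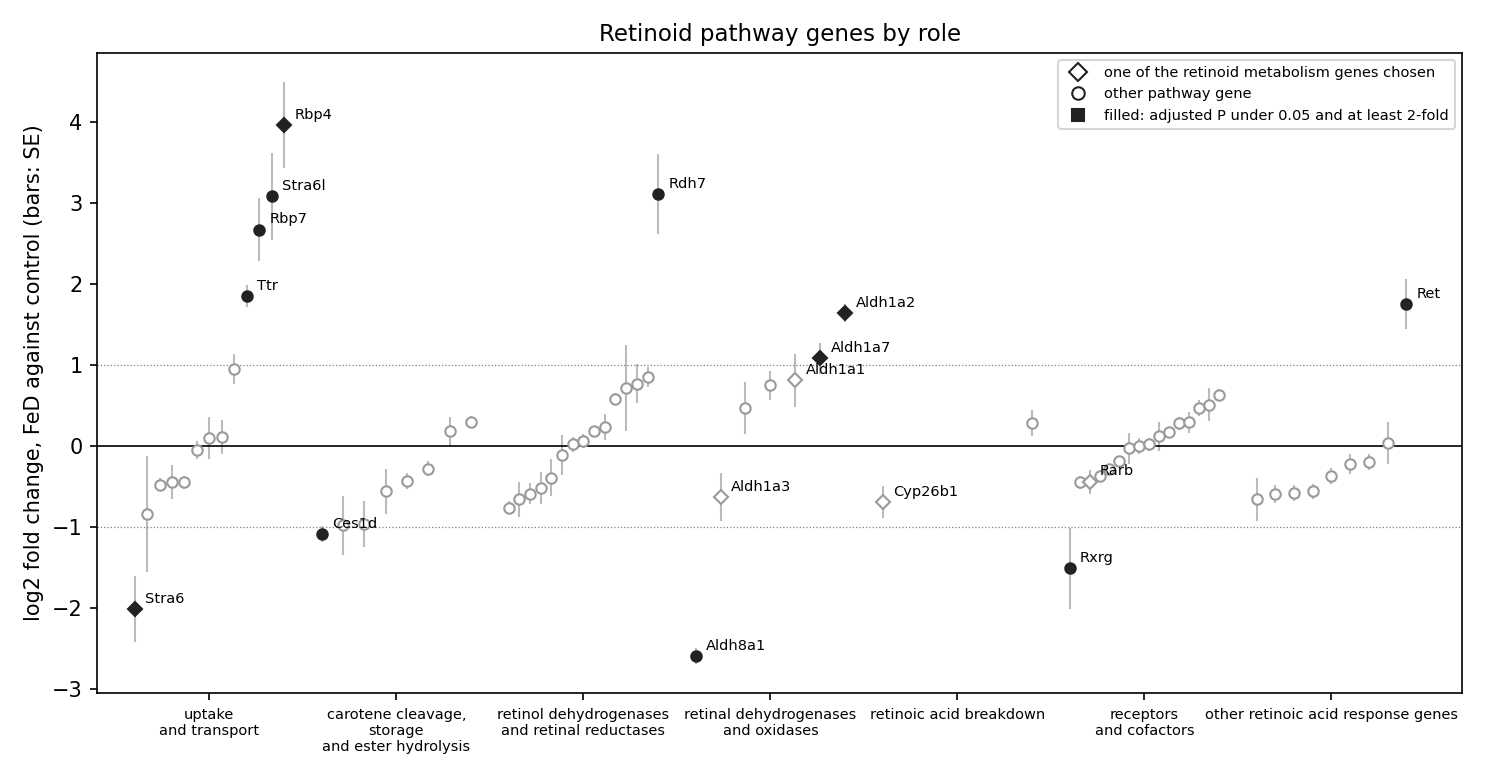
Log2 fold changes (FeD against control, bars show the standard error) of the tested pathway genes are grouped by role, without Rbp2; diamonds are the retinoid metabolism genes chosen, circles the other genes, and filled symbols passed an adjusted P under 0.05 with at least a 2-fold change. Uptake and transport holds both the highest value, that of Rbp4 (3.96), and a fall of Stra6 (-2.01), and the lowest value is that of Aldh8a1 (-2.59).

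**Figure D5:**
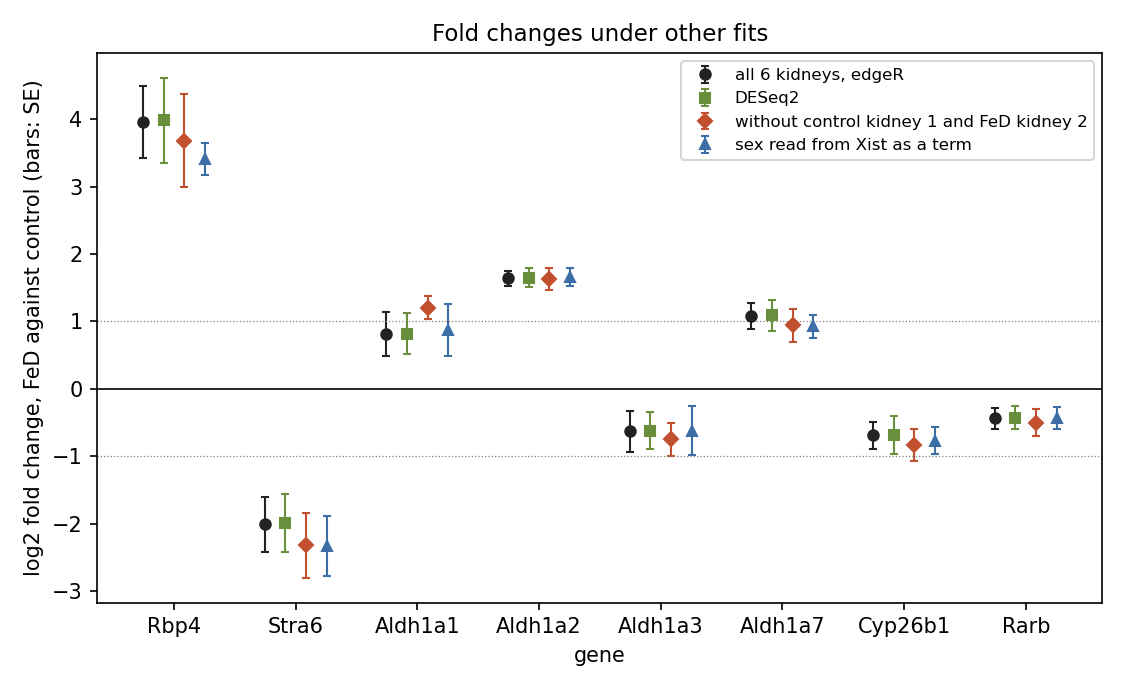
Log2 fold changes with standard errors are shown for the 8 tested genes under 4 fits: all kidneys with edgeR, all kidneys with DESeq2, edgeR without control kidney 1 and FeD kidney 2, and edgeR with Xist as a term. Each gene keeps its direction, and Aldh1a1 (0.81 to 1.20) and Aldh1a7 (1.08 to 0.94) cross the dotted 2-fold line when the 2 kidneys with markers of other organs are left out.

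Other marker lists moved as follows. The 5 thick ascending limb markers, led by Slc12a1, summed to 6180 to 6600 CPM in control and 4670 to 7740 CPM in FeD kidneys; Ptger3 fell by less than 2-fold and 4 did not pass. The 4 distal convoluted tubule markers, led by Slc12a3, summed to 1780 to 2430 CPM and 774 to 963 CPM; Slc12a3 and Pvalb fell at least 2-fold, Calb1 fell by less and Trpm6 did not pass. The 5 endothelium markers, led by Plvap, summed to 1010 to 1030 CPM and 595 to 841 CPM; Emcn fell at least 2-fold, Cdh5, Kdr and Plvap fell by less and Pecam1 did not pass. The 4 macrophage markers, led by Csf1r, summed to 111 to 116 CPM and 92.9 to 112 CPM; Cd68 rose at least 2-fold, Csf1r fell by less, and Adgre1 and Lyz2 did not pass. Of the 6 erythroid markers, 4 globin genes were at 0 in every kidney, Alas2 did not pass, and the sum, led by Alas2, was 18.9 to 47.9 CPM in control and 5.17 to 23.7 CPM in FeD kidneys. By the supplemental methods only uniquely mapped reads were kept, and whether globin reads were lost in this way was not tested. No absence of globin RNA is thus read from these counts. The part of these marker lists in the retinoid genes was not tested.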

How the data were processed

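The authors prepared TruSeq libraries from polyadenylated RNA of 3 control and 3 FeD kidneys and deposited raw counts per gene. Per the labels, reads were processed with CASAVA 1.8.2, Trimmomatic, TopHat2 2.0.11 (mm9) and HTSeq; the supplemental methods state that uniquely mapped reads were kept, and give neither the annotation nor the strand setting. Counts of all 24422 genes entered edgeR 4.0.16 under R 4.3.3 (filterByExpr, TMM, quasi-likelihood test, Benjamini-Hochberg adjustment over 15145 genes); the standard error was the log2 fold change divided by the square root of F. Exon lengths and positions came from the NCBIM37 (mm9) GENCODE annotation. The procedure was tested on simulated data. The genes and lists were chosen with earlier results of these data known. Genes were named by rule: the 9 genes, pathway genes changed at least 2-fold, the gene of each group with the highest mean RPKM over all 6 kidneys, the 5 nearest to Rbp2, a neighbour of Rbp2 and marker genes; others, namely Pde6c, Ffar4, Aqp9, Ccdc33, Cyp26a1, Rdh10, Lrat, Rara, Rarg, Rxra and Rxrb, were named after their values were seen. Alternatives were DESeq2 1.42.0, other size factors and filters, the replicate number as a block, each kidney left out, no fold threshold, the longest transcript as length and other motif spacings. A fit with Xist as a term and one without control kidney 1 and FeD kidney 2 were added after seeing the data. No pair of libraries of a group agreed within sampling noise (chi-square per degree of freedom at least 3.77).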

Additional observations from a re-analysis of the deposited data

How the results depend on the processing

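The directions of all 8 tested genes held under each of 14 alternatives. Aldh1a1 (0.81 on the log2 scale) was past the threshold at 1.20 without the kidneys with ovary or adrenal markers, and ranged from 0.57 to 1.35 with each kidney left out. Aldh1a7 (1.08) was under 2-fold at 0.94 without those kidneys and 0.93 with Xist as a term, and ranged from 0.97 to 1.29 with each kidney left out; the cause was not tested. Without the fold threshold, 3397 genes were higher, 3527 lower and 39 of the pathway list other than Rbp2 (12 with it) passed; dropping a criterion adds genes by construction. With the longest transcript as length, mean RPKM in control kidneys was 10.3 for Aldh1a3 and 2.45 for Stra6, and 0.622 for Stra6 in FeD kidneys. Replicate numbers occur in both groups but name different pups of differently fed dams. Deviations of same-numbered kidneys from their group means correlated at -0.16, 0.01 and -0.04, and not every kidney correlated best with its own number. With the replicate block, 655 genes were higher and 879 lower, 12 of the same pathway genes passed, and the log2 fold changes were 3.76 for Rbp4, 0.90 for Aldh1a1, 1.64 for Aldh1a2, -0.64 for Aldh1a3, 1.05 for Aldh1a7, -0.69 for Cyp26b1, -0.45 for Rarb and -2.12 for Stra6; no call at 2-fold changed among these, but Aldh1a1 and Aldh1a3 passed the adjusted P alone (0.024 and 0.017). Depth limits Rbp2 in control kidneys, which sits at the floor, and Cyp26a1 and Lrat.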
